A study of Mus musculus with 4 samples.

Results

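The difference between Lats2 knockout (KO) and wild type (WT) mouse embryonic fibroblasts (MEFs) was measured in subconfluent cultures. RNA of these cultures filled 4 of the 8 channels of the series, the low density channel on each of 4 2-colour Agilent whole mouse genome arrays. In the first array of each genotype the low density RNA carried Cy3, and in the second, dye-exchanged array it carried Cy5. For each probe the log2 signal of the KO-labelled channel was set against that of the WT-labelled channel of the same dye, and both differences were averaged. A gene counted as tested when its probe stood well above background in both dyes of at least one genotype, which held for 13095 of the 21356 genes named on the arrays.

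All cells were MEFs of the C57BL/6J strain grown in DMEM with serum and antibiotics, without any added agent. The groups were Lats2-/- and Lats2+/+, although the source names of the same samples write LAT2. Low density stood for 48 h of culture up to subconfluence, and high density, on the other channel of the same arrays, for 3 to 5 days. The Lats2 allele, the age of the embryos, their number and the passage of the cells are not given in the sources used here. Each genotype was represented by 1 dye-exchange pair, taken here as a repeat of the labelling since no separate cultures are named, so n = 1 per genotype and no p-value was computed. Values from the first and second arrays are therefore given as the measure of error. The KO-labelled arrays lay on 2 slides and both WT-labelled arrays on a further slide, so slide and genotype cannot be told apart.

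LATS1 and LATS2 are the kinases at the end of the Hippo cascade. They phosphorylate the coactivators YAP and TAZ, which keeps them out of the nucleus, where they would otherwise drive target genes through TEAD factors. In sparse fibroblasts the cascade is little active and YAP and TAZ are largely nuclear, and crowding turns it on. MEFs come from the whole embryo body and are a mixture of fibroblasts that retain the regional transcription factors of their place of origin.

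Between 52.8% and 62.6% of the features of each array stood well above background in the low density channel, and no feature was saturated. The first and second arrays gave the same sign for 90.5% of the 23339 probes tested. A single dye deviated from the mean of both with an SD of 0.113 on the log2 scale. All 4 channels measured 13 of the 14 fibroblast markers above background, while Fap reached it in only 1 channel, and Pdgfra was dim under the WT label. The signal of Vim, an intermediate filament of mesenchymal cells, was 16.01, 16.19, 15.51 and 15.71, listed as both KO-labelled and then both WT-labelled channels. Xist, which silences the inactive X chromosome, gave 13.19, 13.52, 13.04 and 13.10 in the same order, and none of the 5 Y-linked genes on the arrays was well above background in any low density channel. Both labels thus gave the pattern of female cells.

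Lats2, the deleted gene, was read first. Its brightest probe (mm8, chromosome 14, 56644080 to 56644139) gave 12.95 and 12.80 in the KO-labelled channels and 11.50 and 11.49 in the WT-labelled channels, which is higher under the KO label. Of the 4 Lats2 probes, the 3 that lie within 1.23 kb of each other had log2 ratios of 1.38, 1.39 and 1.19. The dimmest probe, 31.2 kb further towards the start of the gene on the minus strand, gave 7.80 and 7.84 in the KO-labelled and 8.35 and 8.55 in the WT-labelled channels, a log2 ratio of -0.63. Which exons the allele lacks is not given in the sources used here, so no probe can be placed inside or outside the deletion, and the RNA signal of 3 of the 4 probes goes against the label. At high density the dimmest probe had -1.26, and the other 3 had 1.49, 1.33 and 0.91. The protein was not measured on these arrays. The study gives a western blot of its Lats2 KO MEFs as confirmation of the knockout. KO and WT are used below as the names that the labels give. Lats1, the paralogous kinase, had a brighter probe with a log2 ratio of -0.35 and a dimmer one with 1.47. The dimmer probe read 8.09 and 7.97 in the KO-labelled channels against 6.53 and 6.59, so the pair of probes gave opposite signs.

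A probe was called when its mean log2 ratio was 1 (2-fold) or more in size and both dyes pointed the same way. By this threshold 3249 of the 23339 probes differed between the labels, 13.9% of them. Of these, 1603 were higher and 1646 lower in the KO-labelled cells. When the sign of one dye was turned before averaging, 10 probes reached the threshold. The dyes repeat the labelling, so this count bears on that repeat and not on the spread between cultures. Taking each gene by its brightest probe, 1006 of 13095 genes (7.68%) were higher and 1190 (9.09%) lower in the KO-labelled cells, and the median over all genes was 0.01. These shares are the background against which the counts of the gene lists are read. Of 1037 tested members of the lists, 56 were above background under the KO label only and 36 under the WT label only, and such genes entered through the label in which they were brighter. In such bulk RNA fewer cells of a type and less RNA per cell cannot be told apart. Differences of at least 8-fold were found for 116 probes higher and 128 lower in the KO-labelled cells. Dim probes were called less often. In the lowest quartile of signal 6.43% of probes were called, against 17.8%, 17.7% and 13.8% in the quartiles above it. Of 925 called genes with other tested probes, 851 (92.0%) had all of those on the same side of 0, and 325 (35.1%) had all of them called in the same direction.

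The difference between the labels was not even over the genome. Genes of chromosome 15 had a median log2 ratio of -0.59, and 136 of its 520 genes (26.2%) were called lower against 19 called higher. Chromosome 4 followed with a median of -0.41 and 136 of 790 genes called lower. Chromosomes 6 and 7 had medians of -0.28 and -0.20. At the other end stood chromosome 12 with a median of 0.28, chromosome 5 with 0.23 and chromosome 14, which carries Lats2, with 0.18. On chromosome 12, 73 of 481 genes (15.2%) were called higher and 27 lower. The remaining 13 chromosomes had medians between -0.15 and 0.13.

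These shifts concerned the bulk of the genes of a chromosome rather than a few of them. On chromosome 15 only 20.2% of genes had a log2 ratio above 0, and its quartiles lay at -1.01 and -0.12. Cut into stretches of 10 Mb with at least 20 genes each (positions of the array design, mm8), chromosome 15 had medians below 0 in 7 of 7 stretches, from -0.84 to -0.51. Chromosome 4 was below 0 in 13 of 13 stretches, while chromosome 5 was above 0 in 12 of 12 and chromosome 12 in 9 of 9. The first and second arrays gave nearly the same medians, -0.59 and -0.59 for chromosome 15, -0.39 and -0.39 for chromosome 4 and 0.29 and 0.28 for chromosome 12. The high density channels, which share the arrays and slides, had medians of -0.59, -0.42 and 0.30 for these 3 chromosomes. Chromosomes 4, 6, 7 and 15 together held 2935 of the 13058 placed genes and 480 of the 1187 called lower. On the other 13 chromosomes, 8.07% of genes were called higher and 7.38% lower. DNA was not measured in these samples, and the part of chromosome number in the differences was not tested. Around Lats2 itself 7 of 32 other probes within 1 Mb (21.9%) and 12 of 59 within 2 Mb (20.3%) were called, against 13.9% of all probes. Within 5 Mb 18 of 160 (11.25%) were called, 10 higher and 8 lower, with a median of 0.15. Within 10 Mb 35 of 274 (12.8%) were called.

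**Figure D1:**
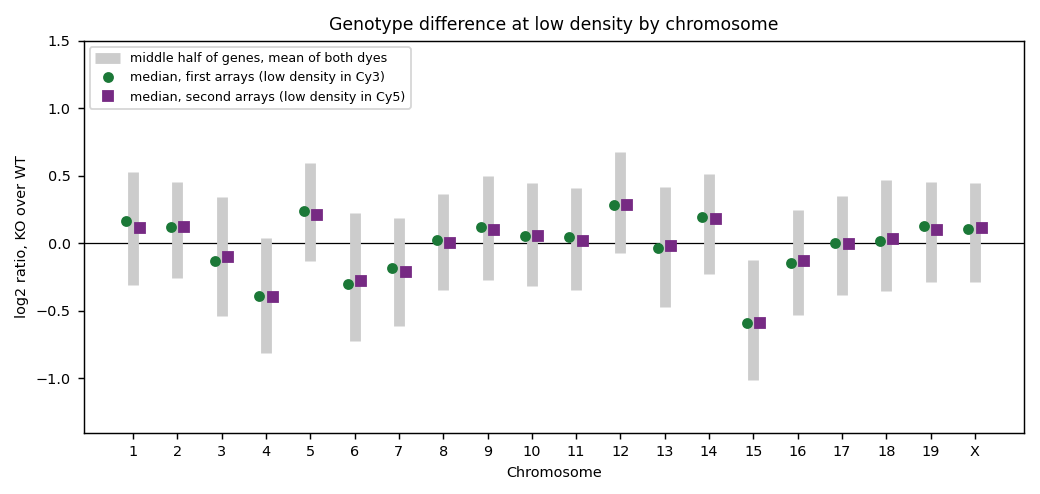
Median log2 ratio of KO-labelled over WT-labelled cells at low density for the genes of each chromosome, from the first arrays (circles) and the second arrays (squares), with grey bars from the lower to the upper quartile of the genes. Chromosome 15 lies lowest at -0.59 and chromosome 12 highest at 0.28, and both arrays place every chromosome nearly alike.

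Single genes differed far more than whole chromosomes. Among the genes measured in all 4 channels, the KO-labelled cells had far higher signals of several membrane and secreted proteins. The widest gap was that of Erdr1, at 15.48 and 15.66 in the KO-labelled channels and 7.41 and 7.44 in the WT-labelled channels, and its second probe had a smaller log2 ratio of 2.79. Ptprb, a receptor-type phosphatase, gave 13.99 and 14.06 in the KO-labelled channels and 6.42 and 6.49 in the WT-labelled channels, and the matricellular protein periostin (Postn) 13.94 and 14.10 in the KO-labelled channels and 8.39 and 8.17 in the WT-labelled channels, with 1.04 by its dimmer probe. The 3 dimmer probes of Ptprb had log2 ratios of 1.59, 1.91 and 3.49. All probes of these genes were thus on the higher side but differed in size. Lrrc15, a leucine-rich repeat membrane protein of activated fibroblasts, gave 12.78 and 12.86 in the KO-labelled channels and 7.27 and 7.46 in the WT-labelled channels, a log2 ratio of 5.46. Ly6a, the surface antigen Sca-1, gave 12.89 and 12.90 in the KO-labelled channels and 7.59 and 7.94 in the WT-labelled channels. The related Ly6c1 gave 14.64 and 14.74 in the KO-labelled channels and 9.86 and 9.97 in the WT-labelled channels. Both genes lie on chromosome 15, against the shift of that chromosome, and members of the Ly6 family are similar enough that their probes may share transcripts. Sulf2, an enzyme that trims sulfate from heparan sulfate outside the cell, was 29.8-fold higher, with 13.09 and 13.32 in the KO-labelled channels and 8.32 and 8.30 in the WT-labelled channels. Slit3, a secreted ligand of Robo receptors, gave 13.26 and 13.49 in the KO-labelled channels and 8.75 and 8.93 in the WT-labelled channels. In each of these genes both KO-labelled channels lay more than 4 log2 units above both WT-labelled channels. The monocyte attractant Ccl2 was 27.3-fold higher and the secreted pentraxin Ptx3 26.2-fold higher, with 1.02 on the log2 scale by the lowest of its 3 probes. Mbp, the myelin basic protein, had a log2 ratio of 4.66 by its best probe, while its second probe gave 0.94.

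Among the genes measured in all 4 channels, the deepest fall in the KO-labelled cells was that of the lysosomal protease cathepsin H (Ctsh), with 6.33 and 6.58 in the KO-labelled channels and 13.72 and 13.66 in the WT-labelled channels. Nestin (Nes), an intermediate filament of progenitor cells, gave 7.15 and 6.94 in the KO-labelled channels and 13.23 and 13.26 in the WT-labelled channels, and the surface antigen Cd24a 6.56 and 6.55 in the KO-labelled channels and 12.40 and 12.38 in the WT-labelled channels. In these 3 genes the KO-labelled signals were close to the lower end of the scale. Cnn1 (calponin), an actin-binding protein of smooth muscle, gave 9.88 and 9.97 in the KO-labelled channels and 15.46 and 15.32 in the WT-labelled channels, a 44.3-fold difference. Speg, a kinase of striated muscle, gave 6.71 and 6.70 in the KO-labelled channels and 12.42 and 12.47 in the WT-labelled channels, while its dimmer probe had a log2 ratio of -0.83 and was not called. Perp, a desmosomal p53 target, gave 8.13 and 8.24 in the KO-labelled channels and 13.54 and 13.43 in the WT-labelled channels. The groups lay more than 5 log2 units apart by the brighter or sole probe of each of these genes. Lama5, a laminin chain of basement membranes, gave 6.91 and 7.09 in the KO-labelled channels and 12 and 11.90 in the WT-labelled channels, and Cgnl1, the junction protein paracingulin, 7.87 and 7.56 in the KO-labelled channels and 12.60 and 12.48 in the WT-labelled channels. The other 3 probes of Cgnl1 had log2 ratios between -4.62 and -0.60. Arhgef5, a guanine nucleotide exchange factor, had a log2 ratio of -5.39, Ephx2, the soluble epoxide hydrolase, -5.19, and Cpq, a peptidase, -5.24. Some of these differences were as large at high density and others were not. Perp had -5.87 there and Arhgef5 -5.48, while Cgnl1 had -1.27, Slit3 1.84, Ptx3 0.67 and Aldh1a7, an aldehyde dehydrogenase that had 5.63 at low density, 0.47. Both densities come from the same arrays, and the difference between them was not tested.

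**Figure D2:**
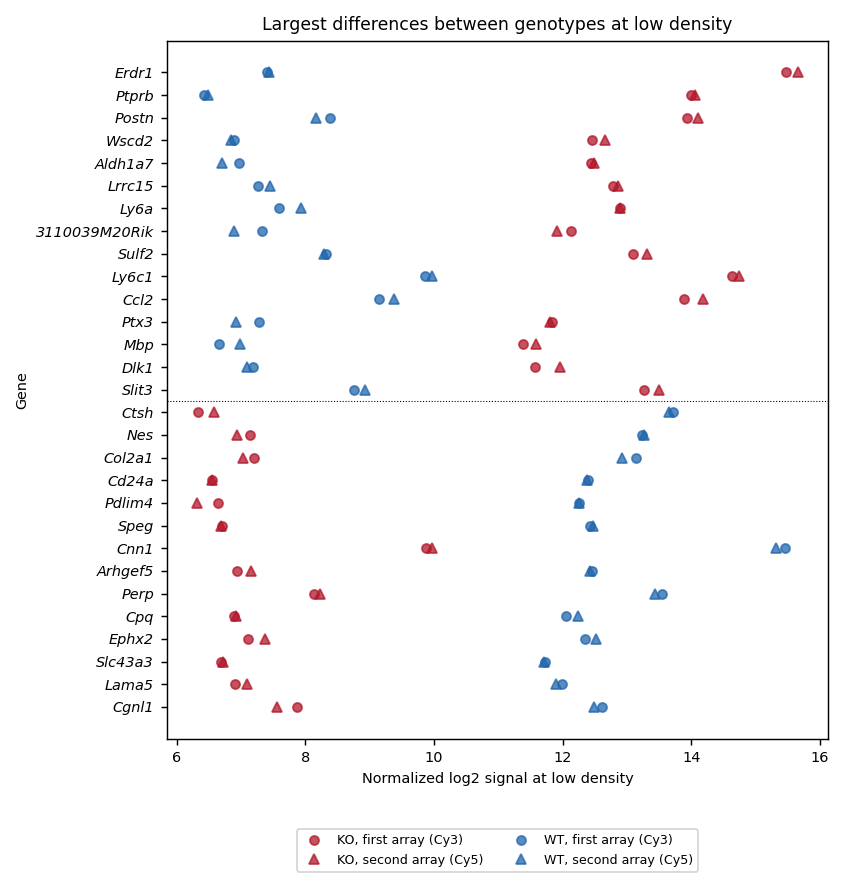
Normalized log2 signal at low density in the 4 channels (red, KO-labelled; blue, WT-labelled; circles, first arrays; triangles, second arrays) for the 15 largest rises above the dotted line and 14 of the 15 largest falls below it, among probes measured in all 4 channels. Each gene is shown by the probe with the largest difference. In every gene drawn both channels of one label lie together and at least 4 log2 units from both channels of the other.

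Another 1264 probes were well above background in both KO-labelled channels and in neither WT-labelled channel, and 442 the other way round. The share of features above background was also highest, at 62.6%, in the first KO-labelled array, and its part in this imbalance was not tested. For such genes only a lower bound can be given, set against the lowest signal that counted as above background. Plac8 (mm8, chromosome 5, 100794153 to 100794212), a small cysteine-rich protein, gave 5.84 and 5.77 in the KO-labelled channels and 14.61 and 14.48 in the WT-labelled channels, at least 366-fold lower in the KO-labelled cells. Gjb2, the gap junction protein connexin 26, gave 5.90 and 5.89 in the KO-labelled channels and 13.33 and 13.42 in the WT-labelled channels, at least 163-fold lower, and lies 590 kb from the nearest Lats2 probe. Both genes were thus bright under the WT label and at background under the KO label. Nrn1, which codes for neuritin, was at least 59.5-fold lower, the amino acid transporter Slc38a1 at least 52-fold lower, the phosphodiesterase Pde1a at least 27.5-fold lower and the prostacyclin synthase Ptgis at least 27.1-fold lower. In the other direction Kif1a (mm8, chromosome 1, 94845941 to 94846000), a kinesin that carries synaptic vesicle precursors, gave 12.26 and 12.52 in the KO-labelled channels and 5.96 and 6.08 in the WT-labelled channels, at least 72.8-fold higher. Crabp1, which binds retinoic acid in the cytoplasm, gave 11.73 and 11.57 in the KO-labelled channels and 6.41 and 6.11 in the WT-labelled channels, at least 41.8-fold higher. Fam181b was at least 58.5-fold higher, Syt13, a synaptotagmin, at least 41.8-fold, Rgs4, a regulator of G protein signalling, at least 33-fold, and the lipoprotein lipase Lpl at least 26-fold.

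Under the processing used here, the gene lists with the lowest medians in the KO-labelled cells were those of DNA replication and mitosis. With Agilent's processed signals the Hox list lay lower, at -1.43 against -1.21 for replication. The neural and glial list, at -1.18, then lay below mitosis, at -1.02. With a normexp offset of 0 the Hox list had -1.30 and replication -1.18. Of the tested genes of DNA replication, 1 of 37 were at least 2-fold higher and 26 lower, with a median of -1.17. Of the licensing and origin genes 0 of 16 were at least 2-fold higher and 12 lower, and of the polymerase and fork genes 0 of 16 were at least 2-fold higher and 12 lower. Mcm4, a subunit of the replicative helicase, gave 13.19 and 13.31 in the KO-labelled channels and 15.02 and 15.02 in the WT-labelled channels, a log2 ratio of -1.77. Cdc45, which activates that helicase, gave 7.98 and 8.12 in the KO-labelled channels and 9.68 and 9.85 in the WT-labelled channels, and Rpa2, a subunit of the protein that coats single-stranded DNA, 9.85 and 9.63 in the KO-labelled channels and 11.49 and 11.44 in the WT-labelled channels. The WT-labelled channels lay above both KO-labelled channels for each of these genes. Pola1, the catalytic subunit of the primase-polymerase, had -1.47, Lig1, the replicative ligase, -1.47 and Tk1, a thymidine kinase of S phase, -1.50. The exception was Rrm2, the small subunit of ribonucleotide reductase, which gave 13.01 and 13.08 in the KO-labelled channels and 11.76 and 11.86 in the WT-labelled channels and was 2.36-fold higher. It lies on chromosome 12, and with the median of that chromosome subtracted it had 0.96, under the threshold.

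Mitotic genes went the same way by a smaller margin. Of the tested genes 0 of 31 were at least 2-fold higher and 14 lower, with a median of -0.99. Prc1, which bundles microtubules of the central spindle, had a log2 ratio of -1.76, from 12.45 and 12.48 in the KO-labelled channels and 14.29 and 14.17 in the WT-labelled channels. Mki67, the proliferation antigen, had -1.41 and -1.44 by its probes, Cdk1, the mitotic kinase, -1.21 and its partner cyclin A2 (Ccna2) -1.20. Among the G1 regulators, cyclin E2 (Ccne2) had -2.16 and cyclin E1 (Ccne1) -1.38. The CDK inhibitors split, with Cdkn2b at 2.22 and Cdkn1c at -1.76, for which the first arrays gave -1.01 and the second -2.52. Ribosomal protein genes, as a list of housekeeping genes, had 0 of 41 genes at least 2-fold higher and 0 lower, with a median of 0.14. At high density the median of the replication genes was -0.39 and that of the mitotic genes 0.42, so the mitotic genes lay on the other side of 0 there. Subtracting each chromosome's median left the list medians at -1.23 for replication and -0.97 for mitosis.

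**Figure D3:**
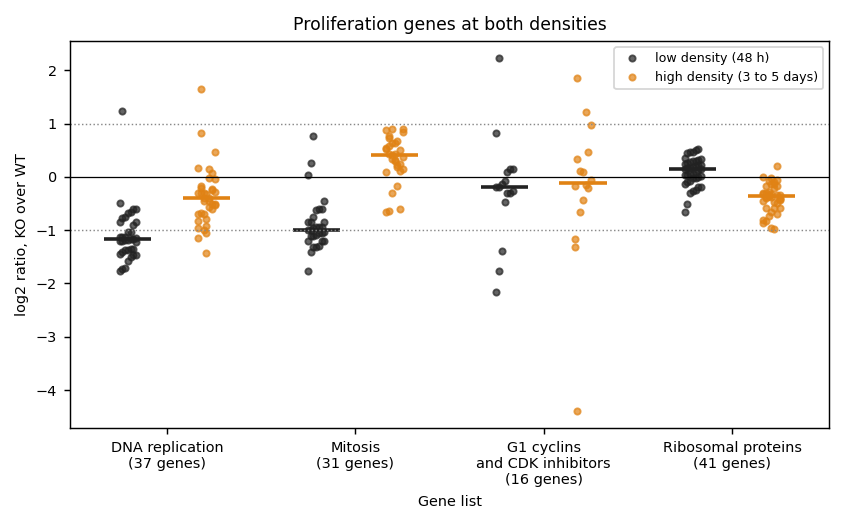
Log2 ratio of KO-labelled over WT-labelled cells for each tested gene of 4 lists at low density (black) and high density (orange), with the list median as a line and dotted lines at 2-fold. At low density the medians of DNA replication and mitosis lie at -1.17 and -0.99, and at high density at -0.39 and 0.42, while ribosomal protein genes stay inside the 2-fold lines at both.

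Since nearly all replication genes called were lower, promoters from among them are shown. E2F factors, which drive genes of S phase, bind a site that was searched as TTTCCCGC, TTTCGCGC, TTTGCCGC or TTTGGCGC on both strands in the 250 bases before the gene start (RefSeq, GRCm38.p6). It was present in the promoters of 8 of 21 replication genes called lower (38.1%), against 338 of 9981 tested genes (3.39%) and 517 of all 27025 genes (1.91%) that have a promoter entry. Over the whole replication list it was present in 8 of 30 promoters (26.7%). The 8 genes were Mcm5, Mcm6, Mcm7, Cdc6, Gins3, Orc1, Rfc3 and Pola1. The promoters of the 3 with the lowest log2 ratios, chosen after these values were seen, are given 5′ to 3′ on the strand of the gene, with the searched letters in capitals. The longer run of capitals in Mcm6 is where matches on opposite strands overlap. Pola1 (chrX:93632156-93632405, minus strand) had a log2 ratio of -1.47, Mcm7 (chr5:138171884-138172133, minus strand) -1.41 and Mcm6 (chr1:128359706-128359955, minus strand) -1.37.
Pola1: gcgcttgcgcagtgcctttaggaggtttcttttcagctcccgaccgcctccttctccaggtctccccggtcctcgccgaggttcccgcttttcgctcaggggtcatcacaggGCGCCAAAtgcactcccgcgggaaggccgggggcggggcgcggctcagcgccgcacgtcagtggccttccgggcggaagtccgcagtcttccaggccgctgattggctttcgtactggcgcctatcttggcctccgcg
Mcm7: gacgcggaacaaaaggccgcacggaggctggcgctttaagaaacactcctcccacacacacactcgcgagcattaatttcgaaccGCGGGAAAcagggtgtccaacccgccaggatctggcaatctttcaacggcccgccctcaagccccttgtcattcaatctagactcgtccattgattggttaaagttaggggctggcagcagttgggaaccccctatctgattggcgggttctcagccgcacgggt
Mcm6: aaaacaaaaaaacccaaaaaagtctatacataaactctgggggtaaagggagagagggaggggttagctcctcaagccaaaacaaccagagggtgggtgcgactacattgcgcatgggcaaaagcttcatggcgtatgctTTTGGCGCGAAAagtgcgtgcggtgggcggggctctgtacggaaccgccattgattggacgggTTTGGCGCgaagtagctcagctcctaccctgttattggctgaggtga
Genes of G2 and mitosis often carry the cell cycle homology region (CHR, TTTGAA) and CCAAT boxes. TTTGAA, on either strand, was present in 6 of 12 promoters of mitotic genes called lower (50%), against 1053 of 9981 promoters of tested genes (10.6%) and 4398 of all 27025 (16.3%). CCAAT was present in 9 of these 12 (75%), against 36.7% of tested genes and 34.5% of all genes. Over the whole mitosis list the shares were 8 of 26 (30.8%) for TTTGAA and 20 of 26 (76.9%) for CCAAT, so CCAAT was no more frequent in the promoters of genes called lower. The promoters with TTTGAA that belong to the genes with the lowest log2 ratios were those of Mki67 (chr7:135716380-135716629, minus strand, -1.41) and Kif2c (chr4:117178773-117179022, minus strand, -1.32), a kinesin that takes microtubules apart. Kif2c lies on chromosome 4, and with the median of that chromosome subtracted it had -0.91, under the threshold. Capitals mark both motifs and their complements.
Mki67: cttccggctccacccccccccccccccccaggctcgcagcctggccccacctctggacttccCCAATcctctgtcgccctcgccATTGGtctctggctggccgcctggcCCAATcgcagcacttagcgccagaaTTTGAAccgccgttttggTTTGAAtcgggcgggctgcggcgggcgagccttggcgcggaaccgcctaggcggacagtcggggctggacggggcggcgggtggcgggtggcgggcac
Kif2c: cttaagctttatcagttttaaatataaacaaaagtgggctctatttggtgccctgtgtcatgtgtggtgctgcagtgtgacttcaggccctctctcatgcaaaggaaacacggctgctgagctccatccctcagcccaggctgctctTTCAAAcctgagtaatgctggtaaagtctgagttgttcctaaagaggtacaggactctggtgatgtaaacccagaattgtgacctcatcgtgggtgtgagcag
The Mki67 promoter held the CHR 2 times and CCAAT 3 times, counting both strands, and that of Kif2c the CHR 1 time. These matches describe letters in a window and say nothing of which factor was bound.

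In the Hippo pathway itself, 4 of 31 were at least 2-fold higher and 1 lower, with a median of 0.25. Beside Lats2, Wwtr1, which codes for the coactivator TAZ, gave 12.47 and 12.50 in the KO-labelled channels and 11.42 and 11.33 in the WT-labelled channels, a log2 ratio of 1.11, and its second probe gave a lower value of 0.48. Tead2, one of the DNA-binding partners of YAP and TAZ, gave 9.17 and 9.29 in the KO-labelled channels and 10.73 and 10.92 in the WT-labelled channels, a log2 ratio of -1.60. Upstream, the scaffold Wwc1 (KIBRA) had 1.27 and Amotl2, which holds YAP at junctions, 1.22. Of the genes known as YAP and TAZ targets, 5 of 21 were at least 2-fold higher and 1 lower, with a median of 0.36 against 0.01 over all genes. Igfbp3, a binding protein of insulin-like growth factors, gave 10.34 and 10.61 in the KO-labelled channels and 5.91 and 5.95 in the WT-labelled channels, at least 19.9-fold higher. Ccdc80, a secreted matrix protein, had 2.93 and Rbms3, an RNA-binding protein, 2.12. Ccn1, a target often used as a readout of YAP activity, went the other way, with 13.97 and 13.79 in the KO-labelled channels and 15.47 and 15.21 in the WT-labelled channels.

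Among positional transcription factors, Hox genes were called lower mainly in the Hoxa cluster, and other patterning factors differed in both directions. Of the Hox genes, which encode position along the body axis, 2 of 19 were at least 2-fold higher and 7 lower, and the list median went from -0.76 to -0.04 when only probes measured in all 4 channels were kept. Within the Hoxa cluster on chromosome 6, 0 of 7 were at least 2-fold higher and 5 lower, of which 3 were at background in both KO-labelled channels. Hoxa7 gave 6.30 and 6.24 in the KO-labelled channels and 10.81 and 10.80 in the WT-labelled channels, and only 1 of its KO-labelled channels was well above background. Hoxa5 gave 5.91 and 5.90 in the KO-labelled channels and 8.77 and 9.02 in the WT-labelled channels, at least 7.32-fold lower, and Hoxa4 6.09 and 6.06 in the KO-labelled channels and 8.60 and 8.88 in the WT-labelled channels, at least 6.28-fold lower by its brighter probe. Under the KO label these genes were thus at or near background. In the Hoxb cluster the members split. Hoxb7 gave 10.31 and 10.36 in the KO-labelled channels and 7.26 and 7.31 in the WT-labelled channels and was 8.3-fold higher, Hoxb9 was 4.09-fold higher, and Hoxb2 gave 8.96 and 8.99 in the KO-labelled channels and 11.53 and 11.44 in the WT-labelled channels, 5.7-fold lower by its brighter probe.

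Of the other patterning factors, 19 of 55 were at least 2-fold higher and 14 lower, against the 7.68% and 9.09% of all genes. Of the 19, 6 were at background in both WT-labelled channels, and of the 14, 5 were at background in both KO-labelled channels. Those genes entered through 1 label alone. Alx4, a homeobox factor of the head and limb mesenchyme, gave 11.08 and 11.23 in the KO-labelled channels and 5.81 and 6.01 in the WT-labelled channels, at least 31.8-fold higher. Its relative Alx1, a factor of the facial mesenchyme, gave 10.93 and 11.29 in the KO-labelled channels and 7.34 and 5.81 in the WT-labelled channels, with 1 of the WT-labelled channels well above background. Irx1, an Iroquois factor, gave 12.30 and 12.70 in the KO-labelled channels and 9.15 and 9.36 in the WT-labelled channels. Lhx8, a factor of the ventral forebrain and of the jaw mesenchyme that is not among the listed 55, was at least 33.1-fold higher. Lower in the KO-labelled cells were Zic1, a zinc finger factor of dorsal neural tube and somites, with 6.00 and 5.99 in the KO-labelled channels and 11.18 and 11.66 in the WT-labelled channels, at least 41.6-fold, and Gata6, a factor of heart and endoderm, with 6.10 and 6.19 in the KO-labelled channels and 10.05 and 10.15 in the WT-labelled channels, at least 15.5-fold. Foxp2 was 9.19-fold lower, and Tbx15, which marks a part of the limb and trunk mesenchyme, had a log2 ratio of -2.32. For most of these factors one label was near background and the other well above it. At high density the same arrays gave -7.04 for Zic1, 5.90 for Alx4, -5.50 for Hoxa7 and 3.34 for Hoxb7. These are measured log2 ratios, for which no lower bounds were worked out.

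**Figure D4:**
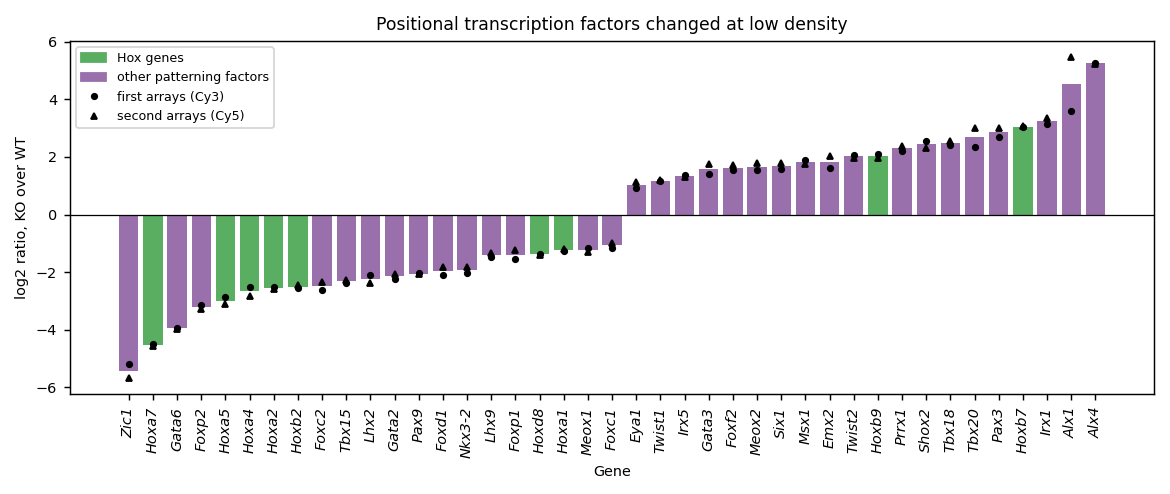
Log2 ratio of KO-labelled over WT-labelled cells at low density for 41 of the 42 listed Hox genes (green) and other patterning factors (purple) past the 2-fold threshold, with bars for the mean and symbols for the first and second arrays. Of the genes drawn Zic1 and Hoxa7 are lowest and Alx4 and Alx1 highest, but genes at background under one label are drawn at their measured ratio, which gives no firm order.

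Matrix genes differed in both directions, by group. Of the collagens, 11 of 27 were at least 2-fold higher and 4 lower, with a median of 0.53. The network-forming and basement membrane collagens had the most genes called, where 6 of 9 were at least 2-fold higher and 1 lower, while of the fibril-forming collagens 1 of 9 were at least 2-fold higher and 2 lower. Col8a2, a short-chain collagen, gave 11.12 and 11.21 in the KO-labelled channels and 7.23 and 6.89 in the WT-labelled channels, and Col4a5, a chain of the basement membrane network, 10.26 and 10.48 in the KO-labelled channels and 8.03 and 8.28 in the WT-labelled channels. Col4a6, which is assembled with Col4a5, was at least 23.1-fold higher. Col5a3 and Col7a1 were lower instead. Col5a3, a minor fibrillar chain, gave 6.60 and 6.28 in the KO-labelled channels and 10.68 and 10.78 in the WT-labelled channels and Col7a1, the anchoring fibril collagen, a log2 ratio of -3.63. Of the small leucine-rich proteoglycans, which decorate collagen fibrils, 7 of 10 were at least 2-fold higher and 0 lower, with a median of 1.44. Decorin (Dcn) gave 10.95 and 12.36 in the KO-labelled channels and 8.62 and 8.83 in the WT-labelled channels, asporin (Aspn) was at least 19.4-fold higher and osteomodulin (Omd) 7.04-fold higher. Of the hyaluronan genes, versican, glypicans and syndecans 1 of 17 were at least 2-fold higher and 4 lower, with a median of -0.39. Has2, the main hyaluronan synthase of fibroblasts, was lower, with 10.12 and 10.12 in the KO-labelled channels and 12.42 and 12.49 in the WT-labelled channels, and so was the cell surface proteoglycan Sdc4, with -1.92.

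Elastic fibre genes had 4 of 22 genes at least 2-fold higher and 2 lower, and matricellular genes 6 of 20 genes at least 2-fold higher and 3 lower. Efemp1 (fibulin-3) gave 14.01 and 13.91 in the KO-labelled channels and 9.50 and 9.46 in the WT-labelled channels, a 22.3-fold difference, and had a log2 ratio of -0.81 at high density. Fbn2, the fibrillin of embryonic tissue, was at least 9.46-fold higher, and Ccn5, a CCN family member without the cystine knot, had 3.12. Tgfbi, a matrix protein induced by TGF-beta, was lower at -2.84. Matrix proteases and their inhibitors differed in both directions, with 6 of 33 genes at least 2-fold higher and 7 lower. Adamts1, which cleaves versican, gave 15.33 and 15.27 in the KO-labelled channels and 10.95 and 11.13 in the WT-labelled channels, while the gelatinase Mmp2 had a log2 ratio of -1.82, Adam19 -2.20 and Mmp23 -2.85. The protease inhibitor Timp1 gave 14.91 and 14.66 in the KO-labelled channels and 17.73 and 17.36 in the WT-labelled channels, and its second probe -2.96. Integrins were split, as the fibronectin receptor chain Itga5 gave 9.08 and 8.94 in the KO-labelled channels and 12.06 and 11.91 in the WT-labelled channels and Itgb3, a partner chain of the vitronectin receptor, 8.56 and 8.69 in the KO-labelled channels and 11.34 and 11.48 in the WT-labelled channels, whereas Itga8 had 1.98. Itga5 lies on chromosome 15. Next to Gjb2, given above, the connexin gene Gjb5 was at least 2.01-fold lower. It lies on chromosome 4 and had -0.69 with the median of that chromosome subtracted.

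In the Wnt pathway the antagonists and targets were counted apart from the ligands and receptors. Of the former 7 of 11 were at least 2-fold higher and 1 lower, and 4 of these 7 were at background in both WT-labelled channels and so entered through the KO label alone. Of the ligands and receptors 4 of 22 were at least 2-fold higher and 4 lower. Dkk2, a secreted ligand of the Wnt coreceptor LRP, gave 10.72 and 10.64 in the KO-labelled channels and 6.63 and 5.88 in the WT-labelled channels, at least 20.5-fold higher. Nkd2, an intracellular inhibitor, gave 11.41 and 11.26 in the KO-labelled channels and 7.19 and 7.30 in the WT-labelled channels, and Lgr5, a receptor for R-spondins, was at least 5.68-fold higher. Wnt4 was at least 16.3-fold higher, and Wnt5a, with 1 of the WT-labelled channels above background, had 2.58. In the Notch pathway 4 of 10 were at least 2-fold higher and 0 lower. The ligand Jag1 gave 12.63 and 12.79 in the KO-labelled channels and 9.53 and 9.68 in the WT-labelled channels by its brighter probe. The dimmer probe of the non-canonical ligand Dlk1 gave 11.57 and 11.96 in the KO-labelled channels and 7.19 and 7.10 in the WT-labelled channels. Its brighter probe had a log2 ratio of 4.38. In the TGF-beta and BMP pathway 3 of 38 were at least 2-fold higher and 6 lower, against 7.68% and 9.09% of all genes. The list median was 0.01 and changed sign in some of the alternatives. Among the genes called were the BMP antagonist Grem1 at 4.51, the ligand Bmp4 at 2.25, follistatin (Fst) at -2.17 and the co-receptor endoglin (Eng) at -2.39.

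Growth factors and their receptors had 9 of 38 genes at least 2-fold higher and 8 lower. The receptor Pdgfra, a marker of mesenchymal cells, gave 10.89 and 11.21 in the KO-labelled channels and 6.82 and 6.36 in the WT-labelled channels by its brighter probe, and the dimmer probe had a log2 ratio of 0.92. Egfr, the receptor of epidermal growth factor, had -2.75 by the brightest of its 6 probes. Fgf7, a fibroblast product that acts on epithelia, gave 7.05 and 7.07 in the KO-labelled channels and 11.60 and 11.55 in the WT-labelled channels. The ligands Igf1, at 2.21, and Vegfc, at 2.21, were higher and Hbegf, at -1.99, lower. Imprinted genes, which are expressed from one parental copy, had 3 of 23 genes at least 2-fold higher and 8 lower. H19, a non-coding RNA of the Igf2 locus, gave 6.64 and 6.51 in the KO-labelled channels and 10.70 and 10.62 in the WT-labelled channels, Rian, a non-coding RNA of the Dlk1 locus, 7.11 and 7.25 in the KO-labelled channels and 10.10 and 10.17 in the WT-labelled channels by its brighter probe, and Mest 6.97 and 6.85 in the KO-labelled channels and 9.70 and 9.75 in the WT-labelled channels. The maternal and paternal products of a locus did not go together. Dlk1 was higher, by 4.62 with its dimmer probe and 4.38 with its brighter one, and Rian was lower. Slc38a4, an amino acid transporter, was higher, with 11.16 and 11.37 in the KO-labelled channels and 6.78 and 6.90 in the WT-labelled channels. Genes of retinoid metabolism had 5 of 18 genes at least 2-fold higher and 4 lower. Of the 5, 3 were at background in both WT-labelled channels, and of the 4, 1 was at background in both KO-labelled channels. Such genes entered through 1 label alone. Dhrs3, a retinal reductase induced by retinoic acid, gave 11.32 and 11.55 in the KO-labelled channels and 7.26 and 7.51 in the WT-labelled channels and the retinoic acid-degrading Cyp26b1 7.35 and 7.71 in the KO-labelled channels and 10.61 and 10.93 in the WT-labelled channels. Of guidance receptors and ligands 5 of 34 were at least 2-fold higher and 9 lower, and Sema3f was the lowest at -3.08.

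Markers of mesenchymal lineages differed in both directions, with muscle genes mostly on the lower side. Of the muscle genes 1 of 28 were at least 2-fold higher and 9 lower, with a median of -0.65. The smooth muscle genes that serum response factor drives included Cnn1, given above, Lmod1 at -1.74 and Myl9 at -1.63, while Cald1 (caldesmon) had 1.14. Adipogenic genes had 5 of 13 genes at least 2-fold higher and 2 lower. Pparg, the master regulator of fat cells, gave 11.05 and 11.24 in the KO-labelled channels and 9.03 and 9.07 in the WT-labelled channels, and the lipid droplet protein Plin4 10.26 and 10.47 in the KO-labelled channels and 7.97 and 7.94 in the WT-labelled channels, while the fatty acid-binding protein Fabp4 had -2.05 and Apoe -1.98. For cartilage, bone and tendon 1 of 20 were at least 2-fold higher and 4 lower. The tendon factor Scx gave 7.99 and 8.11 in the KO-labelled channels and 11.68 and 11.64 in the WT-labelled channels and the bone matrix protein Spp1 13.12 and 13.32 in the KO-labelled channels and 15.74 and 15.62 in the WT-labelled channels. Col2a1, the collagen of cartilage, had -3.22 by its brighter probe and -5.91 by the other. Scx and Col2a1 lie on chromosome 15. Of intermediate filament and keratin genes 0 of 12 were at least 2-fold higher and 4 lower, among them Lmnb1 (lamin B1) at -1.70 and Krt19 at -1.94.

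Secreted immune factors differed in both directions. Of chemokines and cytokines 5 of 24 were at least 2-fold higher and 8 lower. Next to Ccl2, Ccl7 gave 10.76 and 10.73 in the KO-labelled channels and 7.25 and 7.21 in the WT-labelled channels, whereas Cx3cl1, a membrane-bound chemokine, gave 9.98 and 9.84 in the KO-labelled channels and 13.84 and 13.68 in the WT-labelled channels by its brighter probe and the stromal chemokine Cxcl14 was at least 5.2-fold lower. Of MHC class I genes 3 of 17 were at least 2-fold higher and 0 lower, with a median of 0.72. H2-K1 gave 10.90 and 10.94 in the KO-labelled channels and 9.45 and 9.39 in the WT-labelled channels, and B2m, the shared light chain, had 1.17 by its brightest probe. Probes of H2 genes may share transcripts of near-identical copies. Interferon-stimulated genes had 1 of 19 genes at least 2-fold higher and 1 lower, and complement genes 1 of 14 genes at least 2-fold higher and 2 lower.

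Lysosomal genes leaned to higher values in the KO-labelled cells. Of these 9 of 34 were at least 2-fold higher and 3 lower, with a median of 0.72, and among hydrolases and membrane proteins 8 of 24 were at least 2-fold higher and 1 lower. Neu1, a sialidase, gave 11.91 and 12.11 in the KO-labelled channels and 10.37 and 10.44 in the WT-labelled channels, the acid lipase Lipa 10.64 and 10.40 in the KO-labelled channels and 9.14 and 9.01 in the WT-labelled channels and the mannosidase Manba a log2 ratio of 1.38. Cathepsins C (Ctsc) and H (Ctsh) were lower, Ctsc at least 7.17-fold and Ctsh, given above, with a log2 ratio of -7.23. At high density the median of the list was -0.09. Of glutathione and antioxidant genes 8 of 35 were at least 2-fold higher and 3 lower, with the glutathione transferases Mgst3 at 2.85 and Gsta4 at 2.34, and Gpx7, a peroxidase of the endoplasmic reticulum, at -3.19.

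Core metabolism and proteostasis were near the background or below it. Oxidative phosphorylation had 0 of 39 genes at least 2-fold higher and 1 lower, the proteasome 0 of 31 genes at least 2-fold higher and 1 lower and the unfolded protein response 2 of 24 genes at least 2-fold higher and 2 lower. Cyc1, the only oxidative phosphorylation gene called, had -1.06 and lies on chromosome 15. It fell under the threshold under median centring (-0.98) and with the median of that chromosome subtracted (-0.48). For glycolysis and hypoxia 3 of 27 were at least 2-fold higher and 2 lower. Hexokinase 2 (Hk2) gave 10.79 and 11 in the KO-labelled channels and 13.40 and 13.39 in the WT-labelled channels and the glucose transporter Slc2a1 10.94 and 11.42 in the KO-labelled channels and 12.76 and 12.95 in the WT-labelled channels. They lie on chromosomes 6 and 4, and with each chromosome's median subtracted the list median went from -0.32 to -0.04. Of cholesterol synthesis genes 2 of 22 were at least 2-fold higher and 2 lower. Of p53 targets 4 of 19 were at least 2-fold higher and 2 lower, with the death receptor Fas at 2.46 by its brighter probe and Pmaip1 (Noxa) at -2.64.

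Polycomb repressive complexes, which place repressive histone marks, showed small differences. Of PRC2 and PRC1 genes 1 of 27 were at least 2-fold higher and 4 lower, with a median of -0.37. Rbbp4, a histone-binding subunit, gave 12.31 and 12.47 in the KO-labelled channels and 13.65 and 13.92 in the WT-labelled channels, and the PRC1 reader Cbx2 8.19 and 8.18 in the KO-labelled channels and 9.53 and 9.61 in the WT-labelled channels. Phc2, a PRC1 subunit, had -1.27, and Phf1, an accessory subunit of PRC2, was the one called higher, at 1.02. Its call was lost under 75th percentile scaling, under quantile normalization and with the first arrays alone, which gave 0.93. Rbbp4 and Phc2 lie on chromosome 4, and with its median subtracted they had -0.99 and -0.86, and Ezh2, the methyltransferase of PRC2 on chromosome 6, went from -1.02 to -0.74, all 3 below the 2-fold threshold. The call of Ezh2 was also lost under 75th percentile scaling, under quantile normalization and with the first arrays alone, which gave -0.78.

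**Figure D5:**
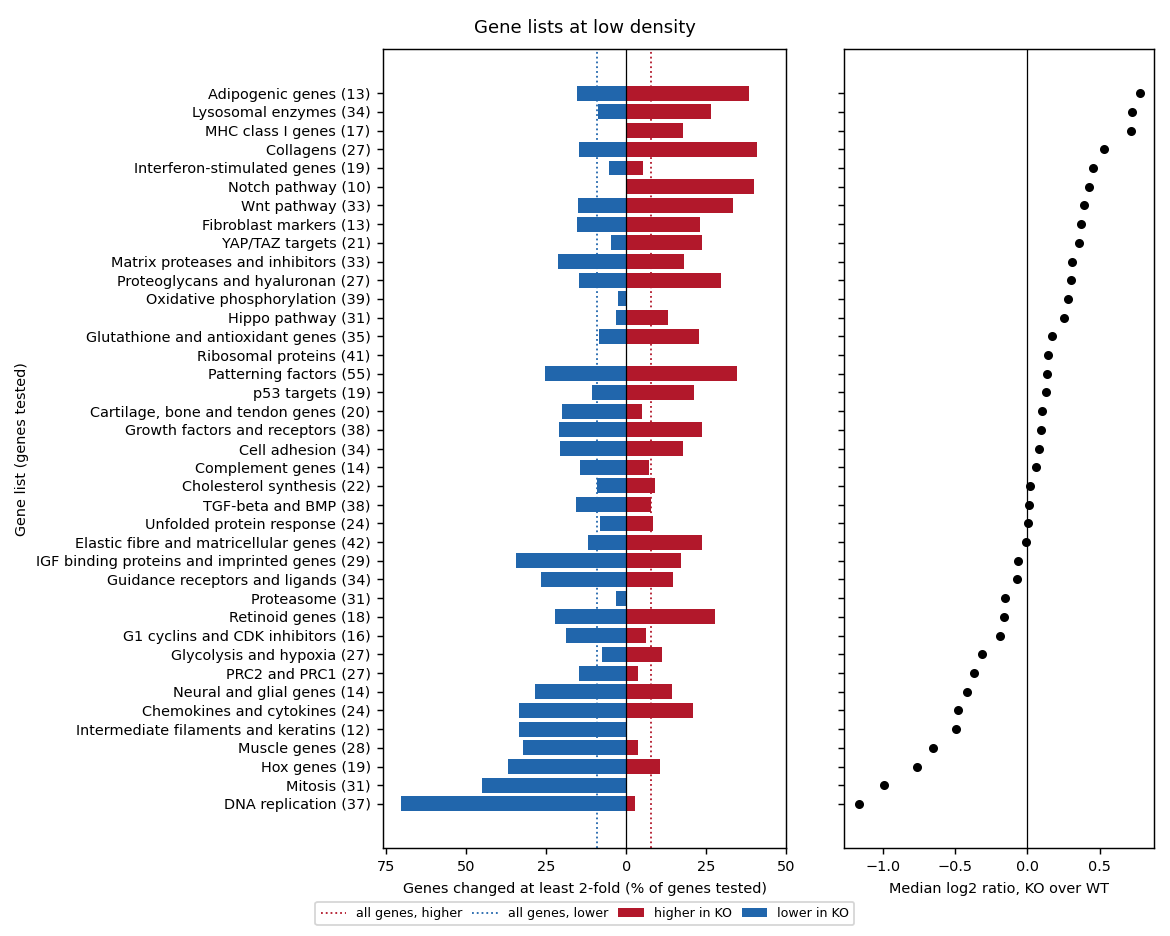
Share of tested genes at least 2-fold higher (red) or lower (blue) in KO-labelled cells for gene lists with 10 or more tested genes, with dotted lines at the 7.68% and 9.09% of all genes, and the median log2 ratio of each list. Under the processing drawn, DNA replication and mitosis have the lowest medians, and the longest bars on the right belong to collagens, the Notch pathway and adipogenic genes. With Agilent's processed signals or a normexp offset of 0 the Hox list had the lowest median.

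Endothelial, macrophage, epithelial, blood and germ cell markers were at background for the most part in both labels. Of 18 endothelial markers on the arrays 6 were well above background in both dyes under the KO label and 6 under the WT label. Pecam1 and Cdh5, which define endothelial cells, were at 5.85, 6.04, 6.03 and 5.99 and at 6.06, 5.94, 5.97 and 5.98, while Ptprb, an endothelial phosphatase, was at 13.99, 14.06, 6.42 and 6.49. Eng, which endothelial cells share with fibroblasts, went the other way with 7.24, 7.21, 9.63 and 9.59, and Egfl7 had a log2 ratio of -0.96. Kdr was at background under the KO label, at 6.14, 6.15, 6.57 and 6.76. A list median over the 18 markers lay between 6.07 and 6.15 in every channel. Of 16 macrophage markers 6 and 4 were above background. Ptprc, which marks all white blood cells, was at 5.85, 6.31, 5.95 and 6.32, and Lyz2, the lysozyme of macrophages, at 10.20, 10.37, 6.58 and 6.18. Cd14, a receptor for bacterial lipopolysaccharide, was lower under the KO label, at 7.57, 7.12, 9.15 and 9.13. Epithelial markers counted 1 and 2 of 16, with Epcam at 5.96, 6.00, 6.08 and 5.99 and Cdh1 at 5.95, 5.95, 6.20 and 6.10. The keratins Krt19, at 8.10, 8.49, 10.13 and 10.32, and Krt18, at 5.96, 6.07, 6.97 and 7.03, were those above background under the WT label. Blood cell markers counted 0 and 1 of 12 and markers of pluripotent and germ cells 2 and 2 of 14. Among 14 fibroblast markers 13 were above background under both labels, and the median over them lay between 13.6 and 13.7 in every channel. Of these 13 markers 3 were at least 2-fold higher (Pdgfra, Prrx1 and Twist1) and 2 lower (Fn1 and Ddr2). Twist1 lies on chromosome 12, and with the median of that chromosome subtracted it had 0.89, under the threshold. Muscle genes, 26 and 27 of 39, and neural and glial genes, 10 and 13 of 25, were above background more often. Of the tested neural and glial genes 2 of 14 were at least 2-fold higher and 4 lower, with a median of -0.42 that ranged from -1.18 to -0.01 over the alternatives. The 2 were Mbp and Map2, at 1.84, and the 4 were Nes, Cd24a, Stmn2, at -1.82, and Ncam1, a cell adhesion molecule named here after its value was seen, at -1.31.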

How the data were processed

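Total RNA of KO and WT MEFs was labelled and hybridised to 4 Agilent arrays (low density after 48 h, high density after 3 to 5 days). The deposited intensity values are the raw mean and background signals per feature, which the authors extracted with Agilent Feature Extraction 10.5.1.1 (version from the submitters' processing notes). Positions are those of the array design (mm8, per the file headers). The deposited detection and outlier flags were used as given. The authors' table of processed values was not used.

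Here mean signals were background-corrected by normexp (offset 50, limma 3.58.1 in R 4.3.3), normalised by loess within arrays and Aquantile between arrays, giving log2 signals. Control spots and features with outlier flags were left out and features of a probe averaged over 41174 probes. Of these 34890 had a gene name, updated through RefSeq (GRCm38.p6). A probe was tested when most of its features were well above background in both dyes of one genotype. Exons were not assigned. The 2-fold threshold is that of the study, whose p-value condition was not applied here and to which the same sign in both dyes was added. The code was checked on simulated data. With 1 sample per genotype no test was run, and precision is limited by there being 4 arrays.

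The gene lists and the comparison were chosen with earlier results of these data known. Named genes were Lats2 and Lats1, the 15 largest rises and falls among probes measured in all 4 low density channels, the 8 largest lower bounds each way, up to 3 genes each way per role of a list, and measured members of the marker lists. Not every gene that this rule names is reported here. Alternatives were Agilent's processed signals, normexp offset 0, median centring, 75th percentile scaling, quantile normalization of all channels, 2 other filters, kept outlier flags, single arrays, a 1.4-fold threshold, the mean of all probes of a gene and, chosen after seeing the data, subtraction of chromosome medians.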

Additional observations from a re-analysis of the deposited data

Results flagged for a closer look

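Of the named genes, 7 were at least 2-fold different in opposite directions at low and high density by the mean of both arrays, with the same sign in both arrays at each density. Fn1 and Notch3 passed 2-fold in only 1 of the arrays at high density. The difference between densities was not tested. Plin4, a lipid droplet protein, had log2 ratios of KO-labelled over WT-labelled cells of 2.41 at low and -5.59 at high density, a change of -8.0 from low to high. Igfbp5, a binding protein of insulin-like growth factors, had 3.52 and -4.23, a change of -7.74. Adamts1, a versican-cleaving protease, had 4.26 and -2.01, a change of -6.27, and the receptor Notch3 1.68 and -1.05, a change of -2.74. These 4 genes were thus higher under the KO label in sparse culture and lower in crowded culture. The other 3 went from lower to higher. Has2, the hyaluronan synthase, had -2.34 and 1.25, a change of 3.59. Fibronectin (Fn1) had -1.30 and 1.33, a change of 2.63, by the brightest of its 4 probes, and Col5a1, a collagen chain that starts fibrils, -1.17 and 1.24, a change of 2.41. The dimmer probe of Igfbp5 gave 0.46 at low density.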

How the results depend on the processing

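The 3249 changed probes became 6313 with Agilent's processed signals, 5275 with a normexp offset of 0 and 9385 at a 1.4-fold threshold. Under median centring, 75th percentile scaling, quantile normalization over all channels, the 2 other filters and kept outlier flags the count lay between 2718 and 3382, and it was 2930 with chromosome medians subtracted, an alternative chosen after seeing the data. Using the second or the first array of each genotype alone, without replicate 1 or 2, gave 3265 to 3408 probes and 47.9% to 50% higher in the KO-labelled cells. The share was 49.3% with both arrays and 46.7% to 52.5% over the alternatives that count probes. Of 252 named genes none reversed, and 11 fell under the threshold in at least 1 of these alternatives, among them Ezh2 and Plk1, and 16 with chromosome medians subtracted. Of 41 list medians 9 changed sign in at least 1 of the alternatives other than that subtraction, and each of these was under 0.5 in size. The medians of the Hox genes, -1.43 to -0.04, and of the neural and glial genes, -1.18 to -0.01, had the widest ranges. Of those that changed sign, that of chemokines and cytokines moved most and went from -0.48 to 0.13 when only probes measured in all 4 channels were kept. The median of chromosome 15 lay between -0.74 and -0.22 over the alternatives without that subtraction. No paired analysis was possible because the values come from no test, and the dye is already paired in every ratio. Slide as a block could not be fitted, since no slide holds both genotypes. Dim probes have their ratios compressed by the offset, and n = 1 per genotype limits every statement to these cultures.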
